A study of Mus musculus with 12 samples.

Results

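Single muscle fibers of aged mice that looked normal in a calcium dye were compared with single fibers of young mice across all genes. The extensor digitorum longus (EDL), a fast muscle of the lower leg, was dissociated with collagenase, fibers were loaded with the fluorescent Ca2+ indicator Fluo-4, and those of the aged mice were separated under a fluorescence stereomicroscope into Fluo-4 normal and Fluo-4 abnormal fibers. The comparison used 8 of the 12 samples of the series, chosen by their labels. These were 4 samples of Fluo-4 normal fibers (labeled Aged normal), from 26–28-month-old mice, and 4 samples labeled Young, from 3–4-month-old mice. The other 4 samples, of Fluo-4 abnormal fibers from aged mice, entered the fit only through the spread between samples and the filter that set which genes were tested. All animals were C57BL/6J with no transgene or treatment named for these samples. Per the paper, the aged animals in which the dye pattern was described were male. Its methods state that aged mice came from a geriatrics center, whereas mice of the strain were bought from a breeder. Age and source therefore cannot be told apart. The labels do not say how many fibers or mice made up a sample, and p-values therefore measure the spread between these samples only.

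The EDL of the mouse consists largely of type IIb fibers, which contract fast and draw on glycolysis. In such a fiber a nerve signal reaches the transverse tubules, the dihydropyridine receptor opens the ryanodine receptor of the sarcoplasmic reticulum (SR), and Ca2+ leaves the SR to start contraction before the SERCA pump returns it. The Z-disc anchors the actin filaments at each end of the sarcomere and also carries proteins that respond to stretch.

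The values were in TPM, transcript abundances scaled for gene length and to a fixed total of 1000000 per sample. Read depth cannot be recovered from this unit, and counting errors are therefore not given. The defining transcripts of muscle fibers were high throughout, since 8 fiber markers summed to 131000–134000 TPM in the young and 117000–136000 TPM in the Fluo-4 normal samples. *Xist*, a transcript of female cells, was listed at 0 in every sample, and the Y-linked *Ddx3y* was at 18.9 to 36.4 TPM. *Nnt*, whose deletion marks the C57BL/6J substrain, was at 2.84 to 5.07 TPM in the young and 3.58 to 7.27 TPM in the Fluo-4 normal samples, and did not pass the test (adjusted p = 0.52). The samples were not all alike. Fluo-4 normal sample 2 had the highest endothelial (47.5 TPM), erythroid (482 TPM), fibroblast (108 TPM) and Schwann cell (16.1 TPM) marker sums of the 8, Fluo-4 normal sample 1 had the fewest symbols above 0 TPM (16892), and young sample 2 had the highest smooth muscle sum (64.6 TPM, against 4.62 to 5.84 TPM in the other young samples).

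For 14426 protein-coding and mitochondrially-encoded genes, log2(TPM + 1) values were fitted with limma, a linear model that borrows information on the spread across genes. Because of the added 1, differences of genes at low TPM come out smaller than their ratio of TPM. A gene was called when its p-value, adjusted over all 14426 genes by the Benjamini-Hochberg method, was under 0.05. Of these genes 166 (1.15%) were called, 81 (0.561%) higher and 85 (0.589%) lower in the Fluo-4 normal fibers, and 1865 (12.9%) had an unadjusted p-value under 0.05. The shares of 1.15% and 12.9% are those to set beside the counts in the gene lists below. The differences were moderate in size, with a median of 0.88 (log2) among the higher and -0.61 among the lower genes, and 67 of the 166 differed at least 2-fold in mean TPM. The median of all tested genes was -0.02, and that of genes with a mean of at least 5 TPM in any of the 3 groups was -0.07. Young and Fluo-4 normal values were fully separated for 165 of the 166 called genes, and for 1152 (7.99%) of all genes. The count depended on single samples. It was 55 without young sample 2, 59 without young sample 3 or without Fluo-4 normal sample 4, 72 without young sample 1, 91 without Fluo-4 normal sample 2, 103 without Fluo-4 normal sample 3, 112 without young sample 4 and 207 without Fluo-4 normal sample 1. Each of the 166 genes kept its direction in every alternative that tested it, and 47 were called with each of the 8 samples left out in turn.

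**Figure D1:**
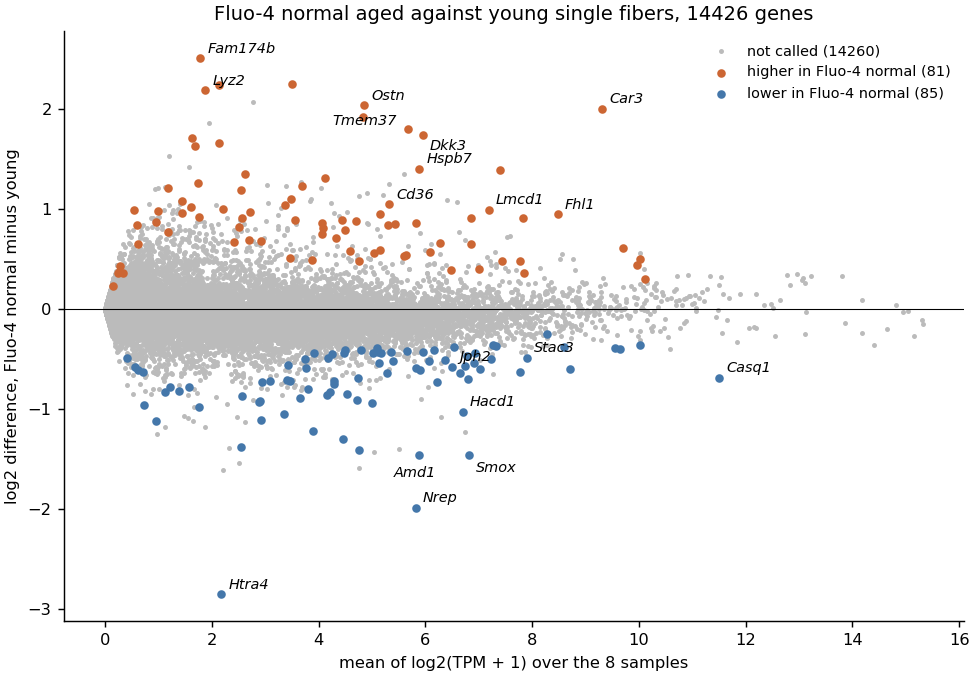
Each point is 1 of the 14426 tested genes, with the mean of log2(TPM + 1) over the 8 samples on the x axis and the log2 difference (Fluo-4 normal minus young) on the y axis. The 81 genes called higher are orange and the 85 called lower are blue, and the named points range from *Htra4* at -2.85 to *Fam174b* at 2.51.

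Genes of SR calcium handling were lower in the Fluo-4 normal fibers as far as any were called. Of 26 genes, 3 were called, all lower, where 1.15% of all genes were called. These were *Casq1*, *Jph2* and *Stac3*. The median of the 26 was -0.26 against -0.02 for all genes, and 22 of the 26 were below 0.

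*Casq1* encodes calsequestrin 1, the main Ca2+-binding protein inside the SR of fast fibers, and lies on chromosome 1 (172037459 to 172049328, GRCm39, minus strand). It was at 3522, 3867, 3687 and 3582 TPM in the young samples and at 2330, 2194, 2154 and 2458 TPM in the Fluo-4 normal samples. The highest Fluo-4 normal sample lay far below the lowest young sample. The difference was -0.68 ± 0.07 (log2, SE, n = 4 per group), with an adjusted p of 0.00042 in limma, and it was called with each of the 8 samples left out. *Jph2* encodes junctophilin 2, which tethers the SR to the surface membrane and its tubules. It was at 101, 130, 117 and 93.6 TPM in the young and 70.2, 74.2, 75.4 and 73.2 TPM in the Fluo-4 normal samples. The Fluo-4 normal samples lay close together and below all young samples (-0.57 ± 0.10, adjusted p = 0.016 in limma). *Stac3* encodes an adaptor of the dihydropyridine receptor that is needed for excitation-contraction coupling. It was at 280, 321, 269 and 263 TPM in the young and 185, 205, 222 and 197 TPM in the Fluo-4 normal samples, again without overlap (-0.48 ± 0.09, adjusted p = 0.021 in limma). The call of *Jph2* was lost without young sample 2 or 3 or Fluo-4 normal sample 4, and that of *Stac3* without young sample 1, 2 or 3 or Fluo-4 normal sample 2 or 4, so that the list had 1 called gene without young sample 2 or 3 or Fluo-4 normal sample 4. It had 4, 1 of them higher, without Fluo-4 normal sample 1.

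The channels and pump themselves did not pass the test. *Ryr1*, the ryanodine receptor, was at 98.7 to 140 TPM in the young and 69.8 to 107 TPM in the Fluo-4 normal samples (-0.42 ± 0.21, adjusted p = 0.43 in limma). *Cacna1s*, the pore of the dihydropyridine receptor, differed by -0.28 (adjusted p = 0.41) and *Atp2a1*, the fast SERCA pump, by -0.23 (adjusted p = 0.51). The parvalbumin gene *Pvalb*, which encodes a soluble Ca2+ buffer of fast fibers, was at 23050 to 25080 TPM in the young and 17010 to 22640 TPM in the Fluo-4 normal samples, without overlap but at an adjusted p of 0.18. The members above 0 with an unadjusted p-value under 0.05 were *Sln* (1.54, adjusted p = 0.17) and *Casq2* (1.00, adjusted p = 0.15), which encode sarcolipin and the slow-fiber calsequestrin and were at low levels in the young samples. Outside the list, and chosen after its values were seen, *Sypl2* encodes mitsugumin 29, a membrane protein of the triad. It was at 134 to 150 TPM in the young and 96.0 to 104 TPM in the Fluo-4 normal samples (-0.54 ± 0.06, adjusted p = 0.0012 in limma). Also chosen after their values were seen, *Calm3*, 1 of the calmodulin genes, fell by 0.73 (adjusted p = 0.027 in limma), and *Camk2a*, a calmodulin-dependent kinase, fell by 0.63 (adjusted p = 0.028 in limma). The call of *Calm3* was lost without young sample 1, 2 or 3 or Fluo-4 normal sample 3 or 4, and that of *Camk2a* without young sample 2 or 3 or Fluo-4 normal sample 2 or 4.

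**Figure D2:**
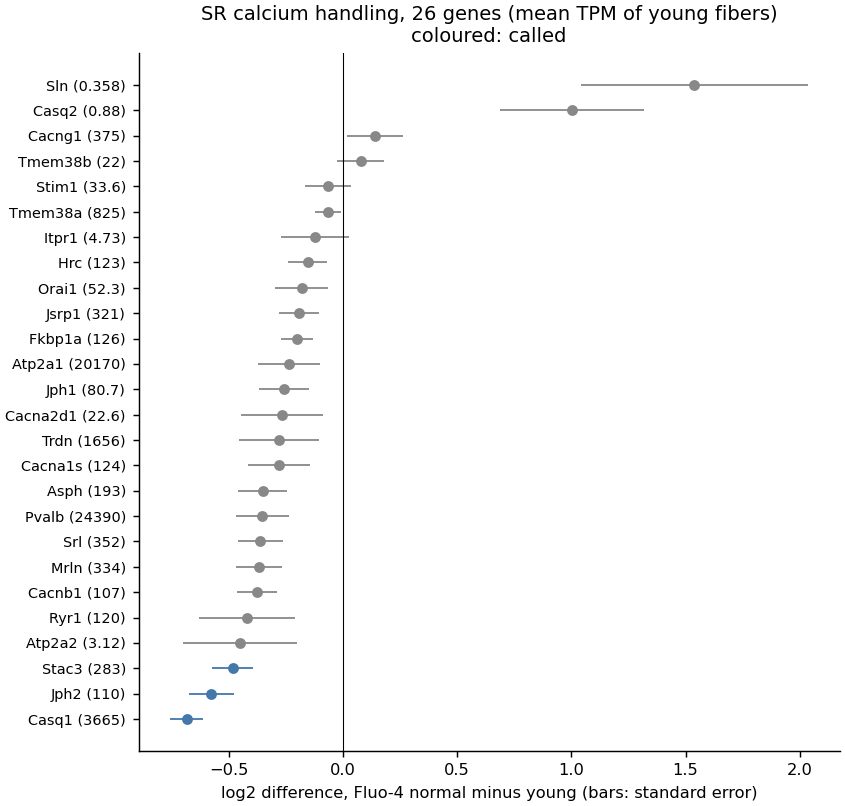
The 26 genes of SR calcium handling are ordered by their log2 difference (x axis, Fluo-4 normal minus young, bars are standard errors of the limma fit), with the mean TPM of the young samples in parentheses. The 3 called genes (blue) are *Casq1*, *Jph2* and *Stac3*, and 22 of the 26 points lie below 0.

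Genes of the Z-disc and of the response to stretch rose as far as any were called. Of 23 genes, 6 were called, all higher, where 1.15% of all genes were called. The list was split, with 13 genes above 0 and 10 below, and its median was 0.20 against -0.02 for all genes. At an unadjusted p-value under 0.05 in limma were 9 genes above 0 and 4 below. The lowest difference of the list was -1.22. *Lmcd1* had the smallest p-value of all 14426 genes. It encodes a LIM domain protein of heart and skeletal muscle and lies on chromosome 6 (112250719 to 112307388, GRCm39, plus strand). It was at 105, 103, 93.4 and 106 TPM in the young and 193, 194, 213 and 218 TPM in the Fluo-4 normal samples. The groups were well apart, with little spread within either (1.00 ± 0.07, adjusted p = 3.0e-05 in limma). *Ankrd1* encodes an ankyrin repeat protein that binds titin and is induced by stretch. It was at 8.88, 8.40, 9.31 and 14.8 TPM in the young and 15.1, 34.3, 39.0 and 24.4 TPM in the Fluo-4 normal samples, where the lowest sample just exceeded the highest young sample (1.31 ± 0.25, adjusted p = 0.023 in limma). *Fhl1*, a LIM protein bound to the sarcomere, was at 216 to 283 TPM in the young and 312, 572, 525 and 634 TPM in the Fluo-4 normal samples (0.95 ± 0.20, adjusted p = 0.040 in limma). Fluo-4 normal sample 1 was again the one nearest to the young samples.

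The other called members were structural. *Myot*, which encodes myotilin, rose by 0.51 (adjusted p = 0.037 in limma), *Cryab*, which encodes the chaperone alpha B-crystallin, by 0.44 (adjusted p = 0.044) and *Ldb3*, which encodes the Z-disc protein ZASP, by 0.30 (adjusted p = 0.044). *Csrp3*, the muscle LIM protein, had the largest difference of the list, 2.08, but varied from 3.61 to 29.6 TPM among the Fluo-4 normal samples and was not called (adjusted p = 0.11). Outside the list, and chosen after their values were seen, *Actn2* (alpha-actinin 2, which cross-links actin at the Z-disc) rose by 0.91 (adjusted p = 0.042 in limma) and *Abra* (an actin-binding protein of striated muscle) by 0.92 (adjusted p = 0.0021 in limma). *Lmcd1* and *Abra* were called with each of the 8 samples left out. The list had 8 called genes without Fluo-4 normal sample 1 and 1 called gene without any one of young samples 1, 2 and 3 and Fluo-4 normal samples 2, 3 and 4. *Myot*, *Cryab*, *Ldb3*, *Fhl1* and *Actn2* lost their calls without any one sample except Fluo-4 normal sample 1. On the other strand, *2310030G06Rik*, itself called higher (0.70, adjusted p = 0.042), shares 19.8% and *Hspb2* 17.2% of the exon bases of *Cryab*, and the libraries do not record the strand.

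Short upstream sequences are given for called genes of the Z-disc and SR lists, where members that moved together shared letters close to their starts. Called genes of the fatty acid, polyamine and heat shock lists were searched too, with the results given below. The 250 bases before each start listed by RefSeq (GRCm38.p6, an older build than that of the files) were searched on both strands for 7 motifs, which were the CArG box that binds serum response factor, the MEF2 site, the E-box CAGCTG, the TEAD motif CATTCC, the heat shock motif GAANNTTC, a further E-box CACGTG and the cyclic AMP motif TGACGTCA. These motifs and genes were chosen after the expression values were seen. Of the 6 called Z-disc genes 4 had an entry, and a CArG box was present in 3 of these, *Lmcd1*, *Fhl1* and *Ldb3*, against 1.62% of all 27025 genes with an entry. Among all called genes it was present in 3 of 55 higher and 1 of 72 lower genes with an entry. GAANNTTC was present in *Ankrd1* and *Fhl1* (7.73% of all genes), CATTCC in *Ankrd1* (14.4%), TGACGTCA in *Lmcd1* (1.77%), and CACGTG and the MEF2 site in none of the 4. CAGCTG, an E-box of the kind bound by myogenic factors, was present in both SR genes with an entry, *Casq1* and *Jph2*, against 14.7% of all genes. It was also present in *Lmcd1*, which rose, and in 7 of 55 higher and 17 of 72 lower genes. None of the other 6 motifs was present in *Casq1* or *Jph2*. In the fatty acid list, 4 called genes had an entry, with CATTCC in 2 and CAGCTG and CACGTG in 1 each. CATTCC was present in 1 of 3 called polyamine genes. Of the 2 called heat shock genes with an entry, CAGCTG was present in 1 and the heat shock motif GAANNTTC in 0. No other motif was present in the called genes of these lists. The stretches follow, read 5′ to 3′ on the strand of the gene, with the motif in capitals.
Lmcd1: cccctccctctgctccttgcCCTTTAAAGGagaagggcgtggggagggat
Fhl1: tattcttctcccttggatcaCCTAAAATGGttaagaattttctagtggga
Ldb3: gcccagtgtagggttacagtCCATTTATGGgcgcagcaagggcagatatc
Casq1: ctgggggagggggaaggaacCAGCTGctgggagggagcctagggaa
Jph2: gggctggagaaggggcggggCAGCTGgga

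The stretch of *Lmcd1* is chr6:112273523-112273572 on the plus strand, with the CArG box 215 to 206 bases before the start. That of *Fhl1* is chrX:56779561-56779610 on the plus strand, with the box 102 to 93 bases before the start. That of *Ldb3* is chr14:34588687-34588736 on the minus strand, with the box 35 to 26 bases before 1 start and 109 to 100 bases before another. For *Casq1* (chr1:172220065-172220110, minus strand) the E-box lies 195 to 190 bases before the start, and for *Jph2* (chr2:163397994-163398022, minus strand) 9 to 4 bases before 1 start and 29 to 24 bases before another. The presence of these letters describes the sequence only and does not show that a factor binds there.

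Genes of fatty acid uptake and oxidation rose as far as any were called. Of 30 genes, 4 were called, all higher, where 1.15% of all genes were called. Of the 30, 27 were above 0, with a median of 0.23 against -0.02 for all genes. *Slc27a1* encodes a fatty acid transport protein of the plasma membrane. It was at 14.7, 18.4, 19.9 and 20.5 TPM in the young and 27.2, 35.4, 37.1 and 39.7 TPM in the Fluo-4 normal samples, without overlap (0.88 ± 0.13, adjusted p = 0.0060 in limma). *Slc25a20* encodes the carrier that moves acylcarnitines into mitochondria. It was at 38.7, 39.2, 37.5 and 42.9 TPM in the young and 57.9, 54.8, 55.7 and 61.6 TPM in the Fluo-4 normal samples (0.53 ± 0.09, adjusted p = 0.017 in limma). *Acadl*, the long-chain acyl-CoA dehydrogenase, rose by 0.48 (adjusted p = 0.042 in limma). The fatty acid receptor and transporter gene *Cd36* rose by 1.05, from 19.6–30 TPM to 38.1–73.3 TPM, and lay at the threshold (adjusted p = 0.0499 in limma). *Cd36* is also expressed by endothelial cells, and the 10 endothelial markers summed to 9.77–21.8 TPM in the young and 12.2–47.5 TPM in the Fluo-4 normal samples, each of the 10 above 0 in its log2 difference, none of them called by limma and 2 at an unadjusted p-value under 0.05. Their part in the value of *Cd36* was not tested. A further 13 members had an unadjusted p-value under 0.05, 12 of them above 0, among them *Acadm* (0.39, adjusted p = 0.061) and *Plin5* (0.85, adjusted p = 0.12). *Ech1*, an auxiliary enzyme of the pathway outside the list and chosen after its values were seen, was at 195 to 206 TPM in the young and 250 to 270 TPM in the Fluo-4 normal samples (0.37 ± 0.06, adjusted p = 0.0081 in limma). *Slc27a1* and *Ech1* were called with each sample left out, whereas the list had 8 called genes without Fluo-4 normal sample 1, 2 without Fluo-4 normal sample 2, and 1 without any one of young samples 1, 2 and 3 and Fluo-4 normal sample 4.

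In the list of lactate, pyruvate and pH genes, 3 of 23 were called, all higher, where 1.15% of all genes were called. All 3 encode carbonic anhydrases, which convert CO2 and water to bicarbonate and protons, and the other carbonic anhydrase of the list, *Car4*, was not called (0.41, adjusted p = 0.58). *Car3*, the abundant cytosolic form of muscle, was at 451, 214, 345 and 296 TPM in the young and 1317, 1139, 1184 and 1452 TPM in the Fluo-4 normal samples. Every Fluo-4 normal sample was above every young sample by a wide margin (2.00 ± 0.17, adjusted p = 0.00013 in limma), and the call held with each sample left out. *Car14*, a membrane-bound form, was at 48.8, 25.2, 27.0 and 27.3 TPM in the young and 67.6, 48.9, 47.2 and 66.1 TPM in the Fluo-4 normal samples, the only called gene with an overlap between the groups (0.86 ± 0.18, adjusted p = 0.043 in limma). *Car2*, a cytosolic form that is also abundant in red blood cells, was at 1.30 to 3.97 TPM in the young and 8.22 to 9.40 TPM in the Fluo-4 normal samples (1.35 ± 0.29, adjusted p = 0.044 in limma). The call of *Car2* was lost without any one of the 8 samples, and that of *Car14* without any one except young sample 1. Hemoglobin and other erythroid markers summed to 33.1–121 TPM in the young and 119–482 TPM in the Fluo-4 normal samples, and their part in the value of *Car2* was not tested. The median of the list was -0.01. The lactate carriers were not called, with *Slc16a1* at 0.46 (adjusted p = 0.33) and *Slc16a3* at -0.11 (adjusted p = 0.65), and *Ldha*, the lactate dehydrogenase subunit of glycolytic muscle, was at 4923 to 5116 TPM in the young and 4107 to 4789 TPM in the Fluo-4 normal samples (-0.18 ± 0.08, adjusted p = 0.34 in limma).

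**Figure D3:**
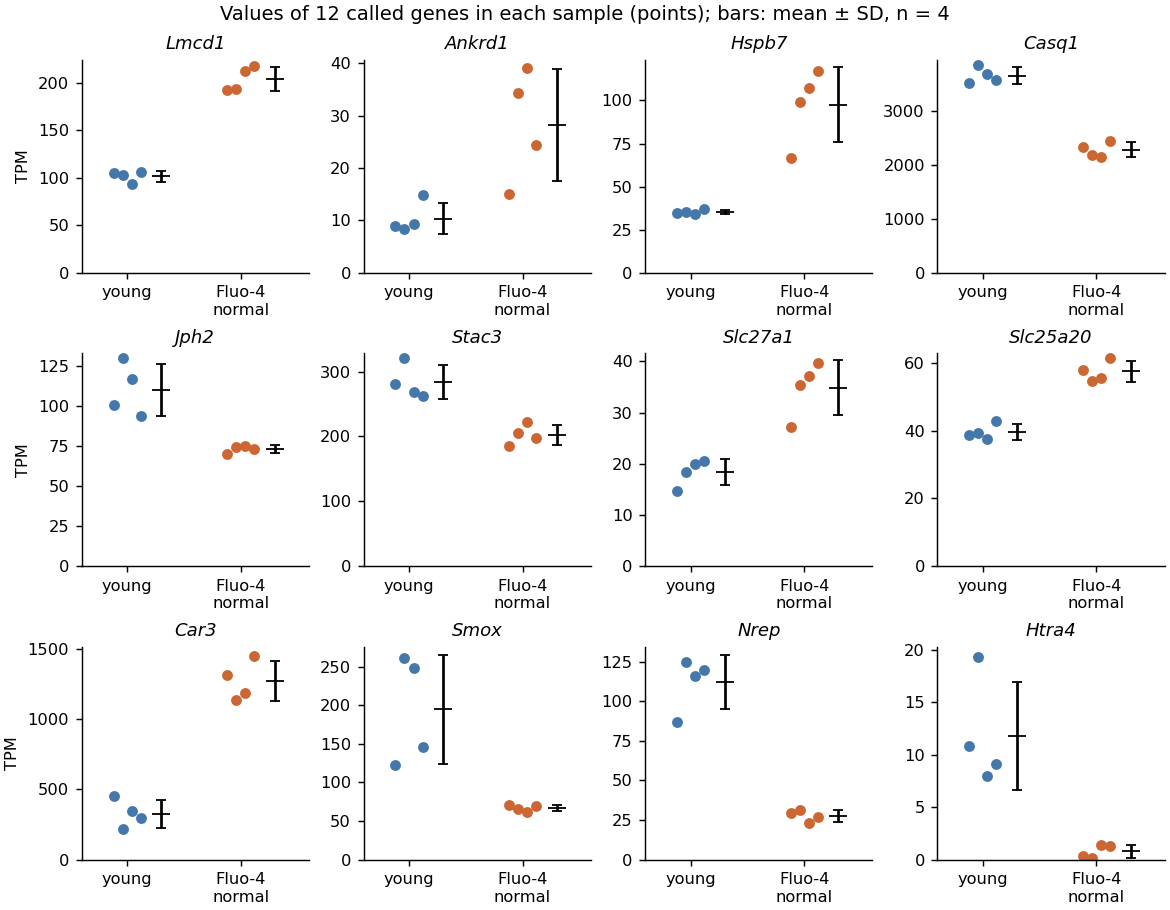
TPM of 12 called genes (y axis, linear from 0) in each of the 4 young (blue) and 4 Fluo-4 normal (orange) samples, with the mean and SD beside the points. The groups do not overlap for any of these 12 genes, the spread within groups is small for *Lmcd1* and *Casq1* and large for *Ankrd1* and *Smox*.

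Genes of polyamine metabolism fell as far as any were called, with 3 of 15 called against 1.15% of all genes. *Smox* encodes spermine oxidase, which breaks spermine down to spermidine. It was at 123, 262, 249 and 146 TPM in the young and 70.2, 65.2, 62.3 and 69.4 TPM in the Fluo-4 normal samples. The Fluo-4 normal samples were almost equal, whereas young samples 2 and 3 were higher than young samples 1 and 4 (-1.46 ± 0.19, adjusted p = 0.0025 in limma). *Amd1* and *Amd2* encode S-adenosylmethionine decarboxylase, which supplies the aminopropyl group for spermidine and spermine. *Amd1* was at 71.0, 164, 128 and 59.4 TPM in the young and 30.6, 39.0, 41.8 and 29.1 TPM in the Fluo-4 normal samples, with the same split among the young samples (-1.46 ± 0.27, adjusted p = 0.023 in limma). *Amd2* fell by 1.41 (adjusted p = 0.020 in limma). The transcripts of these 2 genes are 99.6% identical over 82.8% of the length of *Amd1*, so reads may have been divided between them and they are not separate evidence. The rest of the pathway was not called. *Odc1*, ornithine decarboxylase, differed by -0.20 (adjusted p = 0.74) and *Srm*, spermidine synthase, by -0.01 (adjusted p = 0.99). The members above 0 with an unadjusted p-value under 0.05 were *Azin2*, an antizyme inhibitor (0.56, adjusted p = 0.15), and *Paox*, a polyamine oxidase (0.46, adjusted p = 0.32). The median of the list was -0.11. The calls of *Amd1* and *Amd2* were lost without young sample 2 or 3 or Fluo-4 normal sample 4, which left 1 called gene, and *Smox* kept its call with each sample left out.

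Genes of glycolysis and glycogen moved in both directions. Of 29 genes, 1 was called higher (0.561% of all genes) and 2 lower (0.589% of all genes), with a median of -0.11. *Gbe1*, the glycogen branching enzyme, was at 24.3 to 34.2 TPM in the young and 45.9 to 60.8 TPM in the Fluo-4 normal samples (0.84 ± 0.15, adjusted p = 0.019 in limma). *Pgm1*, phosphoglucomutase 1, which links glucose 1-phosphate and glucose 6-phosphate, fell by 0.39 (adjusted p = 0.030 in limma), and *Eno1*, alpha-enolase, by 0.60 (adjusted p = 0.029 in limma). All 3 calls were lost without young sample 2, without young sample 3, without Fluo-4 normal sample 2 and without Fluo-4 normal sample 3.

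Of 23 heat shock genes, 3 were called, all higher, where 1.15% of all genes were called. These were the small heat shock proteins and co-chaperones *Hspb7*, *Cryab* and *Dnajb1*. *Hspb7*, a small heat shock protein of heart and skeletal muscle, was at 34.7, 35.4, 33.9 and 37.1 TPM in the young and 66.8, 98.9, 107 and 117 TPM in the Fluo-4 normal samples. The young samples were almost equal and far below the Fluo-4 normal samples (1.41 ± 0.17, adjusted p = 0.0014 in limma). *Dnajb1*, a co-chaperone of HSP70, rose by 0.66 (adjusted p = 0.048 in limma), with Fluo-4 normal sample 1 (71.8 TPM) below the other 3 (103 to 109 TPM). The median of the list was 0.07, with 16 genes above 0 and 7 below. An unadjusted p-value under 0.05 in limma was found for 10, 9 above 0 and 1 below. The 1 below was *Hsph1*, which was not called (-0.65, adjusted p = 0.065 in limma). Without Fluo-4 normal sample 1 there were 5 called genes, and only *Hspb7* stayed called without each sample in turn. The related genes of the antioxidant response gave 1 called gene of 26, against 1.15% of all genes. This was *Srxn1*, which encodes sulfiredoxin and rose by 0.81 from 11.1–12.9 TPM to 17.6–26 TPM (adjusted p = 0.026 in limma). That call was lost without any one of the young samples and without Fluo-4 normal sample 3 or 4.

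Antigen presentation genes showed 1 called gene of 30, against 1.15% of all genes. This was *H2-K1*, a major histocompatibility complex class I heavy chain. It was at 21.0, 30, 25.6 and 22.8 TPM in the young and 42.3, 56.8, 37.3 and 62.2 TPM in the Fluo-4 normal samples (0.95 ± 0.16, adjusted p = 0.013 in limma). Of the list of class I and interferon-response genes, 27 of 30 were above 0, with a median of 0.46 against -0.02 for all genes. An unadjusted p-value under 0.05 was found for 15 of the 30, all of them above 0, against 12.9% of all genes. *H2-D1* (0.80, adjusted p = 0.077) and *B2m*, the light chain (0.63, adjusted p = 0.13), were not called. Sums of 10 immune cell markers were 2.17–4.15 TPM in the young and 6.58–21.9 TPM in the Fluo-4 normal samples. In the Fluo-4 normal samples most of this was *Lyz2*, lysozyme of macrophages and granulocytes, at 0.269 to 1.04 TPM in the young and 4.58 to 13.8 TPM in the Fluo-4 normal samples (2.19 ± 0.28, adjusted p = 0.0021 in limma), the 1 called gene of the 9 tested markers. Of the 9 tested markers, 7 were above 0 in their log2 difference and 2 below. In limma 3 had an unadjusted p-value under 0.05, all above 0. *Csf1r* was at 0 to 0.014 TPM in the young and 0.006 to 0.385 TPM in the Fluo-4 normal samples. *C1qa* was at 0 to 0.11 TPM and 0 to 0.68 TPM. The pan-leukocyte marker *Ptprc* was listed at 0 in all young samples and reached 0.076 TPM at most in the Fluo-4 normal samples, and *Adgre1* was listed at 0 in all 8. The part of immune cells in these values was not tested. *Il15*, an interleukin that muscle also releases, was at 5.21 to 7.59 TPM in the young and 13.1 to 15 TPM in the Fluo-4 normal samples (1.05 ± 0.14, adjusted p = 0.0025 in limma, chosen after its values were seen). The list had 3 called genes without Fluo-4 normal sample 1 or 3, and the call of *H2-K1* was lost when both Fluo-4 normal samples 1 and 2 were left out.

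**Figure D4:**
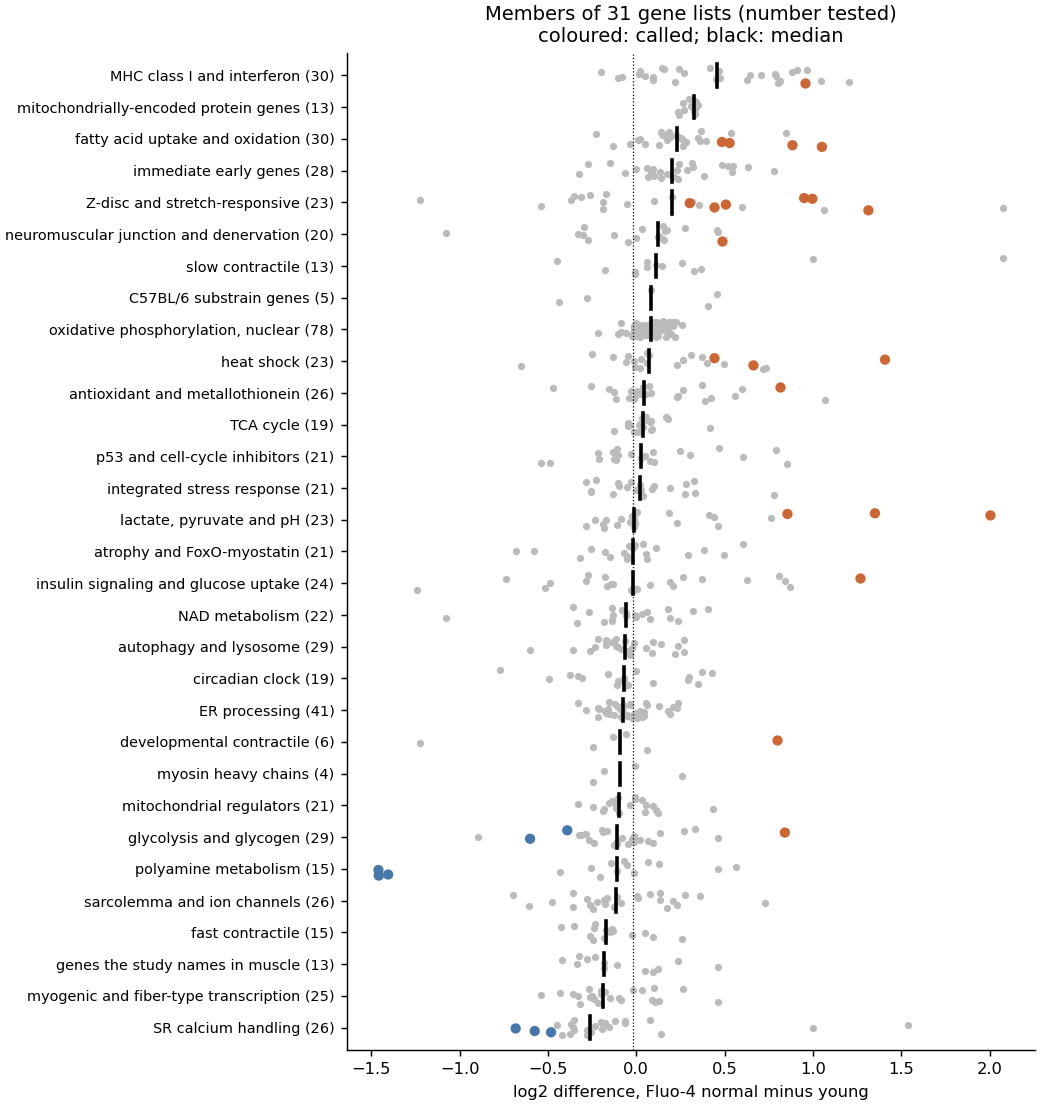
Each row is 1 of 31 gene lists (number of tested genes in parentheses) and each point the log2 difference of a member on the x axis (Fluo-4 normal minus young), orange or blue where called, with a black bar at the median of the list. The dotted line marks the median of all genes, -0.02, and the medians run from -0.26 for SR calcium handling to 0.46 for class I and interferon genes.

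Transcripts made in mitochondria took a larger share of the TPM in the Fluo-4 normal fibers. The share was 7.75%, 7.35%, 8.01% and 7.97% in the young and 10.0%, 10.9%, 9.07% and 8.75% in the Fluo-4 normal samples. Its mean was 9.69% ± 0.97 (SD, n = 4) against 7.77% ± 0.30 (SD, n = 4), a difference of 1.92 percentage points with a two-sided exact permutation p of 0.0286, the smallest that 4 against 4 samples can give. All 13 mitochondrially-encoded protein genes were above 0, with a median of 0.32 and a range of 0.24 to 0.35, but none was called by limma. Of the 13, 8 had an unadjusted p-value under 0.05, against 12.9% of all genes. The 13 genes are part of the share above and moved by similar amounts, so this count is not separate evidence. The ribosomal RNA gene *mt-Rnr1* was called, at 633 to 703 TPM in the young and 841 to 1120 TPM in the Fluo-4 normal samples (0.61 ± 0.10, adjusted p = 0.0087 in limma). Of 78 nuclear genes of oxidative phosphorylation, 64 were above 0 with a median of 0.08, and 0 were called by limma (5 with an unadjusted p-value under 0.05, against 12.9% of all genes). When the TPM were rescaled without the mitochondrially-encoded genes, 87 genes were called higher and 61 lower. *Ckmt2*, the creatine kinase of muscle mitochondria, was at 1040 to 1142 TPM in the young and 1074, 1421, 1077 and 1082 TPM in the Fluo-4 normal samples, so that Fluo-4 normal sample 2 alone stood out (0.10 ± 0.21, adjusted p = 0.91 in limma). *Perm1*, a regulator of mitochondrial genes in muscle, differed by 0.05 (adjusted p = 0.94) and *Ppargc1a*, which encodes the coactivator PGC-1alpha, by 0.12 (adjusted p = 0.84).

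The fibers of both groups were of type IIb by their myosin heavy chains. *Myh4*, the type IIb chain, made up 96.9% to 98.6% of the TPM of the 4 adult chains in the young and 99.2%, 93.7%, 95.2% and 96.8% in the Fluo-4 normal samples. *Myh1*, the type IIx chain, made up 1.39% to 3.05% in the young and 0.733%, 5.90%, 4.73% and 3.11% in the Fluo-4 normal samples. Both shares overlapped between the groups, and neither differed by a two-sided exact permutation test (p = 0.314 for both, 0.629 after adjustment over 4 shares). *Myh2* (type IIa) was at 0.0895% ± 0.0499 in the young and 0.130% ± 0.165 in the Fluo-4 normal samples (SD, n = 4, exact permutation p = 0.971), and *Myh7* (slow) was under 0.001% in both (exact permutation p = 0.743). More fibers of a type and more of its transcript per fiber cannot be told apart in such samples. The spread of *Myh1* among the Fluo-4 normal samples was matched by other values, since sample 1, with the lowest share, also had the lowest *Csrp3* (3.61 TPM), *Ankrd1* (15.1 TPM), *Fhl1* (312 TPM) and *Cd36* (38.1 TPM) of the 4, and the part of fiber type in these values was not tested. With the *Myh4* share as a covariate 114 genes were called, 92 of them among the 166. In the lists of fast contractile (15 genes) and slow contractile genes (13 genes), 0 were called by limma, with 2 and 3 genes at an unadjusted p-value under 0.05 and medians of -0.17 and 0.11.

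**Figure D5:**
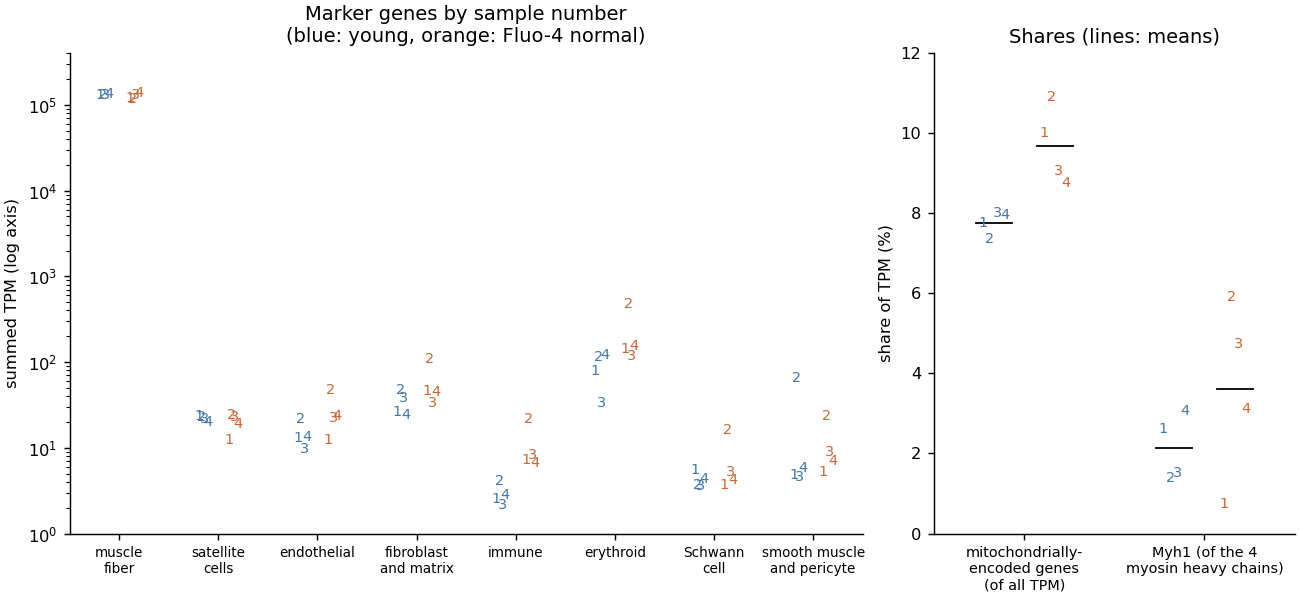
Left, summed TPM (log axis) of marker genes of 8 cell types, printed as the number of each sample in blue for young and orange for Fluo-4 normal. Right, share of TPM in mitochondrially-encoded genes and share of *Myh1* in the 4 myosin heavy chains, with lines at the means, where the mitochondrial shares of the groups do not overlap and those of *Myh1* do.

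Beside the polyamine genes, the largest falls belonged to genes outside the lists. *Nrep*, which encodes a small protein first described in regenerating neurons, was at 87.1, 125, 116 and 120 TPM in the young and 29.1, 31.2, 22.8 and 26.9 TPM in the Fluo-4 normal samples (-1.98 ± 0.16, adjusted p = 0.00010 in limma). *Htra4*, which encodes a serine protease of the HtrA family, was at 10.8, 19.3, 7.92 and 9.07 TPM in the young and 0.383, 0.1, 1.35 and 1.26 TPM in the Fluo-4 normal samples (-2.85 ± 0.29, adjusted p = 0.00038 in limma). Both groups were far apart for each gene, and both calls held with each sample left out. Fluo-4 abnormal fibers averaged 20.6 TPM of *Nrep* and 11.1 TPM of *Htra4*. *Hacd1*, a dehydratase of very long chain fatty acid synthesis that is abundant in muscle, was at 141 to 155 TPM in the young and 92.8, 65.7, 64.9 and 67.8 TPM in the Fluo-4 normal samples (-1.02 ± 0.11, adjusted p = 0.00076 in limma). Also among the 15 largest falls were *Six2* (a homeobox factor, -1.37), *Id2* (-1.29), *Srebf1* (a driver of lipid synthesis, -1.22) and *Bmyc* (-1.04). Their calls were lost without young sample 1, 2 or 3 (*Id2*), without these or Fluo-4 normal sample 4 (*Six2*), without any one sample except Fluo-4 normal sample 3 (*Srebf1*) and without any one except Fluo-4 normal sample 1 (*Bmyc*). *Id2*, an inhibitor of basic helix-loop-helix factors, was at 29.7 to 36.4 TPM in the young and 6.41, 17.8, 16.2 and 14.9 TPM in the Fluo-4 normal samples (adjusted p = 0.017 in limma). The other falls named by the rule were *Ccnd3* (cyclin D3, -0.92), the amino acid transporter gene *Slc38a4* (-0.94), *Serf1* (-1.11), *Tceal8* (-0.91) and *5031439G07Rik* (-0.90), of which *5031439G07Rik* alone was called with each sample left out. The transcript of *Bmyc* is 99.8% identical over 63.4% of its length to *A230005M16Rik*, and reads may have been divided between them. *Htra4* shares 32.0% of its exon bases with *Gm16933* on the other strand.

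Among the 15 largest rises, *Ostn* encodes osteocrin, or musclin, a peptide that muscle releases. It was at 13.1, 19.9, 11.1 and 10.6 TPM in the young and 93.4, 26.1, 52.4 and 85.7 TPM in the Fluo-4 normal samples, with a wide spread among the latter (2.04 ± 0.39, adjusted p = 0.026 in limma), and lost its call without young sample 1, 3 or 4 or Fluo-4 normal sample 3 or 4. *Dkk3*, a secreted member of the Dickkopf family, was at 32.8, 44.9, 30.4 and 25.5 TPM in the young and 132, 83.8, 114 and 124 TPM in the Fluo-4 normal samples (1.74 ± 0.16, adjusted p = 0.00016 in limma). *Apod*, which encodes apolipoprotein D, was at 3.40 to 5.38 TPM in the young and 12.1, 52.8, 19.8 and 24.7 TPM in the Fluo-4 normal samples (2.25 ± 0.37, adjusted p = 0.013 in limma). Sample 2, which had the highest *Apod*, also had the highest fibroblast and Schwann cell marker sums, whose part in this value was not tested. *Aldh1a1*, a retinaldehyde dehydrogenase, was at 97.2 to 122 TPM in the young and 212, 306, 348 and 249 TPM in the Fluo-4 normal samples (1.39 ± 0.21, adjusted p = 0.0057 in limma). *Tmem37* (1.80), *Amy1* (amylase 1, 1.92), *Prkcz* (an atypical protein kinase C, 1.66), *Lgals3* (galectin 3, 2.25), *Slf1* (1.23) and *Fam174b* (2.51) were also among the 15 largest rises, and all 6 were called with each sample left out. *Fam174b* was the largest of all, from 0.256–0.573 TPM in the young to 4.31–12.4 TPM in the Fluo-4 normal samples (adjusted p = 0.0025 in limma).

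Lists of aging-related processes follow, where 1.15% of all genes were called and 12.9% had an unadjusted p-value under 0.05. Among 20 genes of the neuromuscular junction and denervation, *Chrnb1*, the beta subunit of the acetylcholine receptor, was the 1 called gene, at 19.4 to 23.1 TPM in the young and 26.9 to 34.4 TPM in the Fluo-4 normal samples (0.49 ± 0.10, adjusted p = 0.034 in limma). That call remained only without Fluo-4 normal sample 1. Among 6 developmental contractile genes, *Myl4*, the embryonic and atrial light chain, rose from 13.8–18.9 TPM to 24.0–35.3 TPM (0.80 ± 0.13, adjusted p = 0.0098 in limma), a call that held with each sample left out. That list was mixed, with 2 genes above 0, 4 below and a median of -0.09. Its lowest member, *Actc1*, differed by -1.22 and was not called (adjusted p = 0.082 in limma). Among 24 insulin signaling genes, *Rasd2*, a small GTPase, rose from 0.710–2.06 TPM to 3.29–5.05 TPM (adjusted p = 0.013 in limma). By limma, 0 genes were called in the lists of atrophy and FoxO-myostatin (21 tested), p53 and cell-cycle inhibitors (21), the integrated stress response (21), ER processing (41), and autophagy and lysosome (29), with 4, 3, 1, 2 and 5 genes at an unadjusted p-value under 0.05. The same held for the TCA cycle (19), mitochondrial regulators (21), sarcolemma and ion channels (26), myogenic and fiber-type transcription (25), the circadian clock (19) and immediate early genes (28), with 2, 2, 10, 5, 3 and 3 such genes. Of the 10 in sarcolemma and ion channels, 7 were below 0 and 3 above, and the median of that list was -0.12. In NAD metabolism, 0 of 22 genes were called by limma and 4 had an unadjusted p-value under 0.05. *Nmrk2*, a nicotinamide riboside kinase of muscle, came closest, at 84.2 to 148 TPM in the young and 33.0 to 73.3 TPM in the Fluo-4 normal samples (-1.08 ± 0.24, adjusted p = 0.053). *Nampt*, the rate-limiting enzyme of NAD salvage, was at 21.8 to 30.9 TPM in the young and 15.4 to 23.3 TPM in the Fluo-4 normal samples (-0.33 ± 0.13, adjusted p = 0.28 in limma). *Nmnat1* differed by -0.18 (adjusted p = 0.55) and *Nmnat3* by 0.24 (adjusted p = 0.24). A further list held 13 nuclear genes chosen from the paper, all given above except *Tbp* (-0.32, adjusted p = 0.57). In it 0 were called by limma and 4 had an unadjusted p-value under 0.05. The list is not complete, since it leaves out *Sirt1* (adjusted p = 1) and the mitochondrially-encoded genes of the paper, of which *mt-Rnr1* was called. The counts of called genes and of genes with an unadjusted p-value under 0.05 were 0 and 1 in limma for 5 genes that differ between C57BL/6 substrains, 0 and 2 for 8 satellite cell, 10 fibroblast and 6 Schwann cell markers each, and 0 and 0 for 6 smooth muscle and 2 adipocyte markers.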

How the data were processed

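Single-fiber RNA was reverse transcribed from 10 ng of total RNA with SMART-Seq v4, without strand information. Per the methods and the submitters' processing notes, the authors aligned the reads to GRCm39/mm39 with DRAGEN 4.3 and deposited TPM values for 12 samples. The annotation release is not given in the sources used here. Repeated symbols (114) were summed and classes taken from GENCODE vM39. Genes were kept if protein-coding or mitochondrially-encoded, with a group mean of at least 0.02 TPM. log2(TPM + 1) values of the 3 groups were fitted with limma 3.58.1 (R 4.3.3, variance trend, Benjamini-Hochberg). Shares were compared by exact permutation over 70 arrangements. Depth is unknown. On simulated data with 14426 genes, 90% of 2-fold and 98% of 4-fold changes were recovered, and 3.09% of calls were unchanged genes. The 200 changed genes were drawn from those above about 5 TPM in the young, with independent noise of equal spread in all groups. These rates therefore do not cover lower genes or deviations that genes of a sample share. Named genes are the 15 largest rises and falls among called genes with at least 5 TPM in the higher group, up to 3 called genes (or the 1 with the smallest p) per list, the muscle genes named in the study, the myosin heavy chains, and *Nnt* and *Xist* as checks, 83 tested genes in all. The 31 gene lists, 9 marker lists and tests were chosen with earlier results of these data known. Near-identical transcripts (95% identity or more over 50% of the length) were looked for with BLAST 2.17.0, and 91 of the 166 called genes share at least 100 exon bases with a gene on the opposite strand.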

Additional observations from a re-analysis of the deposited data

Results flagged for a closer look

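The difference from young fibers was compared between both kinds of aged fiber. As they share the young samples, the comparison equals Fluo-4 abnormal minus normal. Of the 49 named genes called between Fluo-4 normal and young fibers, 20 differed in this way at an adjusted p-value under 0.05 (limma), as did 68 of all 166 called genes and 1349 (9.35%) of all genes. The 49 were chosen on Fluo-4 normal values that also enter this contrast, so nothing is read from their larger share. Same-numbered Fluo-4 normal and abnormal samples deviated together (correlations 0.438, 0.375, 0.430 and 0.302), and with the number as a block among the 8 aged samples, an alternative added after the data were seen, 16 of the 20 stayed called. *Eno1* (adjusted p = 0.055), *Pgm1* (0.052), *Slc27a1* (0.060) and *Slc38a4* (0.063) did not. Above 0, that is higher in the abnormal fibers, were *Htra4* (2.82), *Rasd2* (2.31), *Fam174b* (1.54), *Serf1* (1.18), *Amd1* (1.09), *Amd2* (1.03), *Chrnb1* (0.95), *Slc38a4* (0.69), *Smox* (0.65), *Jph2* (0.55), *Stac3* (0.52), *Casq1* (0.50), *Eno1* (0.47) and *Pgm1* (0.27), on the log2 scale. Below 0 were *Car2* (-1.56), *Tmem37* (-0.9999), *Slc27a1* (-0.68), *Acadl* (-0.68), *Lmcd1* (-0.62) and *Myot* (-0.43).

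In 18 of 176 groups of 4 checked, the highest or lowest sample stood apart from the others, where chance gives about 1 in 20 groups. In Fluo-4 normal sample 2 these were *Ckmt2* (1420 TPM), *mt-Nd5* (2220 TPM), *Lyz2* (13.8 TPM), *Myh2* (34.6 TPM) and the share of *Myh2* in the myosin heavy chains (0.377%). In Fluo-4 normal sample 1 they were *Hacd1* (92.8 TPM), *Dnajb1* (71.8 TPM) and *Ppargc1a* (10.8 TPM), and in Fluo-4 normal sample 3 *Slc38a4* (31.2 TPM) and *Lgals3* (4.94 TPM). In young sample 1 they were *Aldh1a1* (122 TPM) and *Car14* (48.8 TPM), in young sample 3 *Myh2* (17.2 TPM, and a share of 0.164%) and *Slf1* (11.0 TPM), and in young sample 4 *Slc16a3* (216 TPM), *Ulk2* (17 TPM) and *Ankrd1* (14.8 TPM).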

How the results depend on the processing

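The number of called genes (166) depended on the samples, the estimate of the spread, the filter and the criterion. It was 69 from the 8 samples alone, 15 with a pooled-variance test per gene, 358 with sample quality weights, 266 with a filter of 5 TPM, and 560 when a 2-fold difference of means and an unadjusted p-value were required instead. It stayed within 1.5 times with TMM-type factors (238), without the mitochondrially-encoded genes (148), with no filter (123), with a pseudocount of 0.1 (206), with all annotated genes (120), with a covariate for the share of *Myh4* (114) and with same-numbered aged samples as a correlated block (176, correlation 0.214). Leaving out each sample gave 55 to 207, and leaving out both Fluo-4 normal samples 1 and 2, chosen after the data were seen, 91. With the replicate number as a block (replicate block) 320 genes were called. The labels do not say whether the numbers pair young with Fluo-4 normal samples. Deviations of same-numbered young and Fluo-4 normal samples correlated at 0.064, 0.228, 0.156 and -0.081 over 5994 genes, against -0.163 to 0.253 for different numbers. Whether a shared number stands for a shared factor was not tested. No named called gene changed direction in any of the 20 alternative fits that tested it, and 23 of 49 stayed called with each sample left out. *Ckmt2*, *Perm1*, *Myh1* and *Myh2*, not called, changed sign in some. The cause of these changes was not tested. The shares differed by 1.52 to 2.23 percentage points (mitochondrially-encoded genes) without each sample. Without Fluo-4 normal sample 1, 128 genes were higher and 79 lower. Depth is unknown, so low genes carry an unstated counting error.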

Other observations

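The genes given here belong to no list and were chosen after their values were seen. Lower in the Fluo-4 normal fibers were 4 of them. *Me1*, malic enzyme 1, was at 123 to 154 TPM in the young and 64.6 to 106 TPM in the Fluo-4 normal samples (-0.70 ± 0.15, adjusted p = 0.048 in limma). *Gamt*, which makes creatine, was at 19.6 to 30.2 TPM in the young and 12.4 to 16.2 TPM in the Fluo-4 normal samples (-0.75 ± 0.13, adjusted p = 0.018 in limma). *Fitm1*, a protein of lipid droplet formation in muscle, was at 416 to 455 TPM in the young and 319 to 354 TPM in the Fluo-4 normal samples (-0.37 ± 0.05, adjusted p = 0.0055 in limma). *Jak2*, a cytokine receptor kinase, was at 13.9 to 20.3 TPM in the young and 8.40 to 10.6 TPM in the Fluo-4 normal samples (-0.80 ± 0.13, adjusted p = 0.0098 in limma). The groups did not overlap for any of these 4 genes. *Fitm1* and *Jak2* were called with each sample left out, whereas *Me1* lost its call without any one sample except Fluo-4 normal sample 3, and *Gamt* without young sample 1, 2 or 3 or Fluo-4 normal sample 3 or 4. On the other strand, 35% of the exon bases of *Me1* belong to *Rwdd2a* and 24.9% of those of *Gamt* to *Ndufs7*. For *Fitm1* the share is 18.7% (*Gm15932*) and for *Jak2* 3.55% (*Gm59364*).

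Among the higher genes were the membrane scaffold gene *Stom* (stomatin), at 10.7 to 12.2 TPM in the young and 19.9 to 22.3 TPM in the Fluo-4 normal samples (0.86 ± 0.09, adjusted p = 0.00034 in limma), the cold-inducible RNA-binding protein gene *Rbm3* (0.66 ± 0.11, adjusted p = 0.016 in limma) and *Maob*, monoamine oxidase B (0.89 ± 0.13, adjusted p = 0.0045 in limma). All 3 were without overlap between the groups, and *Rbm3* alone lost its call, without young sample 1 or 3 or Fluo-4 normal sample 4.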
